A study of Rattus norvegicus with 9 samples.

Results

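The 35 genes described here encode glutamate receptors, the carriers that load and clear glutamate, and the postsynaptic proteins that hold the receptors in place. They were chosen by symbol from a table of 30507 gene rows, and each was found. They comprise 4 AMPA receptor subunits, 7 NMDA receptor subunits, 5 kainate receptor subunits, 7 metabotropic receptors, 3 vesicular transporters, 2 uptake transporters and 7 postsynaptic scaffold and signaling proteins. Gria2 stood on 2 rows, and the row with the higher total was used.

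The libraries came from spinal cord RNA (segments T9 to T11) of female Sprague-Dawley rats, 8 weeks old at the start and sampled at 35 days post-injury (dpi), with 3 rats in each of 3 groups. Sham rats had a laminectomy with neither contusion nor electrode, and the labels give their treatment as none. SCI rats had a T10 contusion (spinal cord injury) and a connector plug on the neck, without an epidural electrode. SCI + SCS rats had the same contusion, an epidural electrode and 10 kHz spinal cord stimulation for 2 h per day from 1 dpi. Rats with an electrode that was not switched on were not analysed here, so the electrode and the stimulation cannot be told apart in any comparison with the SCI + SCS group. The samples of a group were separate rats, and the labels name 1 batch.

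Glutamate is the main excitatory transmitter of the spinal cord. It is loaded into vesicles by VGLUT carriers, and after release it opens AMPA, kainate and NMDA receptor channels and acts on G protein-coupled metabotropic receptors. PSD-95, Homer and Shank proteins anchor these receptors to the postsynaptic density, where CaMKII is an abundant kinase of synaptic plasticity. In the dorsal horn these synapses carry touch and pain signals, and in the ventral horn they drive motor neurons.

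The libraries held 62844376 to 88358570 gene counts, and 3 counts, the smallest level taken as shown, were 0.034 to 0.0477 CPM (counts scaled to a common library size). Floors of this kind cover counting error only. The markers of the tissue were present in every group: the summed CPM of 14 pan-neuronal genes was 5602 to 12276 in Sham rats, 1194 to 3170 in SCI rats and 2994 to 4702 in SCI + SCS rats. SCI replicates 1 and 3 also held skeletal muscle RNA, with a summed CPM over 7 muscle genes of 3424 and 963, against 10.9 to 64.1 in the other 7 libraries. The median level of the 35 genes (log2, against the Sham mean) was -1.57 in SCI replicate 2, which lacked it, and -1.62 and -2.17 in SCI replicates 1 and 3. Removing the muscle and adipocyte marker genes before normalization changed no call among the 35 genes. This left 17811 of 17822 genes in SCI vs Sham, and other transcripts of muscle stayed in. The part of muscle RNA in the results was therefore not tested.

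SCI vs Sham asked how the contusion changed the tissue at 35 dpi. Of the 35 genes, 26 fell and 0 rose (0 also by DESeq2 and at an unadjusted p under 0.05) at |log2FC|>1 and a Benjamini-Hochberg (BH) adjusted p under 0.05 in edgeR's quasi-likelihood test (differentially expressed genes, DEGs). Over all 17822 genes tested, 13.6% were lower and 13.4% were higher DEGs. The median log2FC of the 35 genes was -1.85, a 3.6-fold lower level, with a range from -5.44 to -0.40, beside a median of 0.02 over all genes tested. Without the fold threshold 30 genes fell and 0 rose (background, 25% lower and 24.3% higher), and in 33 of 35 genes every SCI library lay below every Sham library (background, 31.1%). In tissue of this kind, fewer neurons and less RNA per neuron cannot be told apart.

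**Figure D1:**
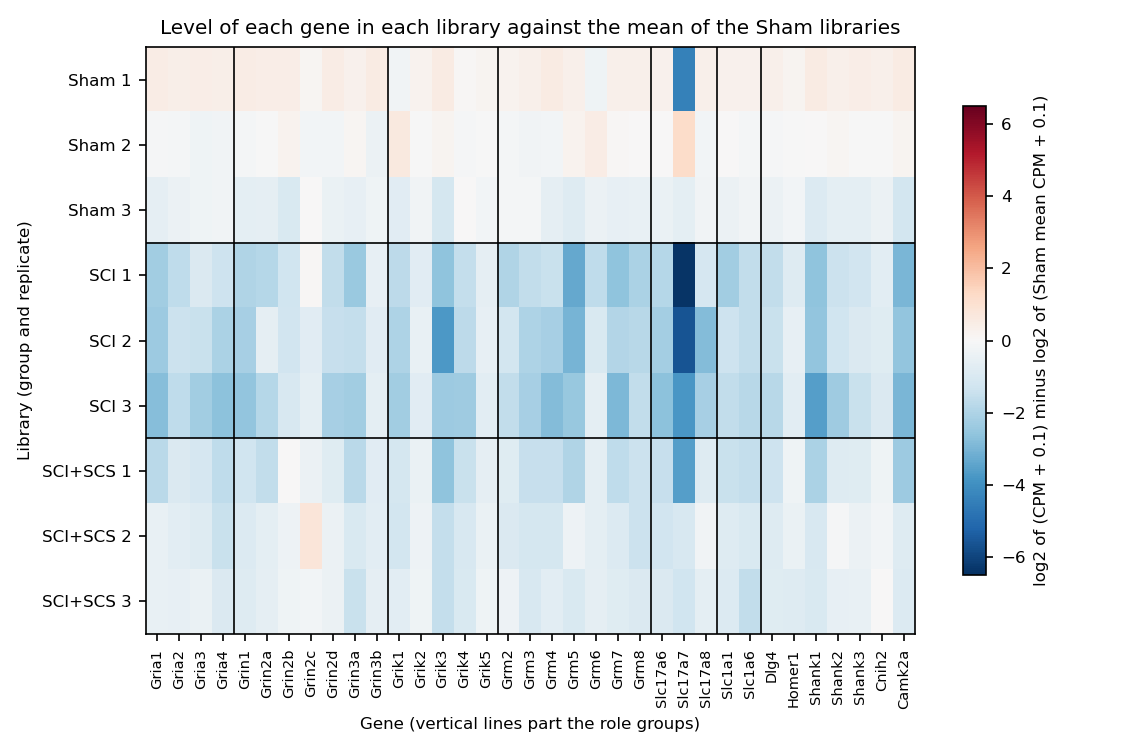
Level of each of the 35 genes (columns, in role groups parted by lines) in each of the 9 libraries (rows), as log2 of CPM plus 0.1 minus the same for the Sham mean. Blue marks lower and red higher levels. The SCI rows are the darkest blue for most genes, while Grin2c stays pale and Slc17a7 is also dark in Sham replicate 1.

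Because the 35 genes lay on the same side of 0 in this comparison, the promoters of 3 of them are shown: Grin1, the subunit that every NMDA receptor needs, and Slc17a6 and Slc17a7, which encode the carriers VGLUT2 and VGLUT1. The sequences are from RefSeq on build GRCr8, run from 250 bases before to 50 bases after the start, and are written 5′ to 3′ on the strand of the gene. Capitals mark the GC box GGGCGG or its reverse complement CCGCCC. Of the 35 genes, 23 had a promoter in the RefSeq table.
Grin1 (chr3:28528705-28529004, minus strand): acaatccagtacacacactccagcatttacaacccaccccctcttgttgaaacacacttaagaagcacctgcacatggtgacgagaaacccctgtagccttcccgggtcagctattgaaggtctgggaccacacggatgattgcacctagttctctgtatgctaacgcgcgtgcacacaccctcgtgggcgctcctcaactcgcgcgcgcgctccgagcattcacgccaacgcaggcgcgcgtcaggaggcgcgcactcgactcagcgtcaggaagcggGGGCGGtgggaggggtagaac
Slc17a7 (chr1:104785955-104786254, plus strand): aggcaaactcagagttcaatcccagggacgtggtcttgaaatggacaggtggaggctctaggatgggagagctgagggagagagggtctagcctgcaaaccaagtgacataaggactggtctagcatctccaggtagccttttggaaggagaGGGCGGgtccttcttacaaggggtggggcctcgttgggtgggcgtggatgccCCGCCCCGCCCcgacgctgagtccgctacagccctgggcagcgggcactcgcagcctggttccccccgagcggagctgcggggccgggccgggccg
Slc17a6 (chr1:110348197-110348496, plus strand): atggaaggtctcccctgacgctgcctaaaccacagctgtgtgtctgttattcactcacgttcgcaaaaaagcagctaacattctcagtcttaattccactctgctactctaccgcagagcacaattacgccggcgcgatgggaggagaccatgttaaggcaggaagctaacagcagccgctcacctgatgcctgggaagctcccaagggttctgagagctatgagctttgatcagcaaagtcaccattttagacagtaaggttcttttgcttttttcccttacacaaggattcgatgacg
The Grin1 window held 1 GC box, the Slc17a7 window held 3, of which a pair share 1 base, and the Slc17a6 window held 0. Among the 23 promoters, 7 (30.4%) held a GC box on either strand, those of Grin1, Grik3, Grik5, Grm7, Slc17a7, Slc1a6 and Cnih2, against 33.1% of all 33469 promoters of the same length. The sequence TTCAGCACC, the start of the site of the neuronal gene repressor REST, was in 0 of the 23 (0.356% of all promoters), and the cyclic AMP response element TGACGTCA, which is its own reverse complement, was also in 0 of the 23 (1.83%). These matches describe letters in the windows and nothing about binding.

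Each of the 4 AMPA receptor subunits, which carry most of the fast excitatory current, fell after SCI. Gria1 (GluA1, chromosome 10 from 41210713 to 41527283 in the files' build mRatBN7.2) stood at 14.5, 9.89 and 6.80 CPM in the Sham libraries, at 2.09, 1.92 and 1.43 CPM in the SCI libraries, and at 3.04, 7.39 and 7.46 CPM in the SCI + SCS libraries. Its log2FC of -2.54 (SE 0.33, n = 3 against 3; edgeR, BH-adjusted p = 0.00223) was the largest fall of the family, and every SCI library lay below both other groups. Gria4 (GluA4, a subunit of fast-gating AMPA receptors) stood at 99.1, 65.4 and 65.4 CPM in Sham rats, 30.4, 18.1 and 12.1 in SCI rats, and 24.6, 28.4 and 40.1 in SCI + SCS rats. It fell by 1.94 on the log2 scale (SE 0.36; edgeR, BH-adjusted p = 0.00607), and the SCI and SCI + SCS libraries overlapped. Gria2 (GluA2, whose edited form limits the entry of calcium) fell less, with 115, 80.2 and 68.6 CPM in Sham rats, 27.6, 32.8 and 27.8 in SCI rats, 46.0, 55.4 and 61.2 in SCI + SCS rats and a log2FC of -1.60 (SE 0.21). Here the groups formed 3 separate bands. Gria3 (GluA3) had a log2FC of -1.48 (SE 0.37), and its call was lost without SCI replicate 2 (edgeR, BH-adjusted p = 0.0535).

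Of the 7 NMDA receptor subunits 4 fell: Grin1, Grin2b, Grin2d and Grin3a. Grin1 (GluN1, chromosome 3 from 8103680 to 8130603) stood at 222, 145 and 102 CPM in the Sham libraries, 39.9, 35.1 and 26.4 in the SCI libraries and 62.5, 85.0 and 88.3 in the SCI + SCS libraries. The groups did not overlap, and the fall from Sham to SCI was 2.23 on the log2 scale (SE 0.32; edgeR, BH-adjusted p = 0.00276). Grin3a (GluN3A, a glycine-binding subunit that lowers calcium entry) stood at 3.57, 3.22 and 2.02 CPM in Sham rats, 0.469, 0.922 and 0.535 in SCI rats, and 0.814, 1.40 and 1.03 in SCI + SCS rats. It fell by 2.21 (SE 0.39; edgeR, BH-adjusted p = 0.00486), and both injured groups lay below every Sham library. Grin3a overlaps Ppp3r2 on the same strand (218 counts in total for Ppp3r2 against 1050 for Grin3a). Grin2d (GluN2D, a subunit of slowly closing receptors) stood at 17.5, 11.2 and 9.24 CPM in Sham rats, 4.09, 4.48 and 2.79 in SCI rats, and 7.28, 9.69 and 9.76 in SCI + SCS rats, and its log2FC was -1.76 (SE 0.31). Grin2d overlaps Kcnj14 on the same strand, and that neighbour held 14580 counts over the 9 libraries against 5570 for Grin2d, so reads near the overlap are uncertain.

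The remaining GluN2 subunits differed in level and in size of change. Grin2a and Grin2b (GluN2A and GluN2B, the main GluN2 subunits of the forebrain) were scarce, with 12 to 79 and 38 to 147 counts per library. Grin2b had a log2FC of -1.33 (SE 0.45; edgeR, BH-adjusted p = 0.0477) and lost its call without any 1 of 5 libraries, all but Sham replicate 3, with adjusted p up to 0.135. Grin2a had a log2FC of -1.57 (SE 0.59) and did not pass (edgeR, BH-adjusted p = 0.0654; without SCI replicate 2 it passed, at 0.0212). Grin2c (GluN2C, best known from cerebellar granule cells) stood at 44.5, 36.7 and 41.6 CPM in Sham rats, 43.0, 24.9 and 26.04 in SCI rats, and 31.3, 70.8 and 36.8 in SCI + SCS rats. The groups overlapped, and its log2FC of -0.40 (SE 0.23; edgeR, BH-adjusted p = 0.177) was the smallest of the 35. Grin3b (GluN3B, the other glycine-binding GluN3 subunit) had a log2FC of -0.66 (SE 0.27) and did not pass (edgeR, BH-adjusted p = 0.0794). It shares its locus with the antisense gene Tmem259, which held 64235 counts against 6811, and the strand setting of the counting is not given in the sources used here.

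Among the kainate receptor subunits Grik1, Grik3 and Grik4 were DEGs, while Grik2 and Grik5 fell by less than the fold threshold. Grik3 (GluK3) was scarce, with 113, 120 and 43 counts in Sham rats, 9, 0 and 11 in SCI rats and 8, 25 and 22 in SCI + SCS rats. Its log2FC was -3.73 (SE 0.98; edgeR, BH-adjusted p = 0.0198), and the call was lost without SCI replicate 1, Sham replicate 1 or Sham replicate 2, with adjusted p up to 0.0581. Grik1 (GluK1, found in sensory neurons and interneurons) stood at 10.6, 19.7 and 7.57 CPM in the Sham libraries, 3.77, 3.02 and 2.59 in the SCI libraries and 5.71, 5.36 and 7.93 in the SCI + SCS libraries. Sham replicate 2 was the highest library for Grik1, and the fall was 2.03 (SE 0.38; edgeR, BH-adjusted p = 0.00621). Grik4 (GluK4, which needs GluK1 to GluK3 to form a channel) fell by 1.85 (SE 0.21). Grik2 (GluK2) and Grik5 (GluK5, the most abundant kainate subunit here) had log2FC of -0.65 (SE 0.15) and -0.61 (SE 0.13), and both passed without the fold threshold (edgeR, BH-adjusted p = 0.0136 and 0.00931). Grik5 shares its locus with the antisense gene Zfp574 (18104 against 32187 counts), and Grik1 with the antisense gene LOC102549158 (1444 against 5046 counts).

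Of the 7 metabotropic receptors 6 fell after SCI. Grm5 (mGluR5, which couples to Gq and calcium release) stood at 7.36, 7.03 and 3.24 CPM in Sham rats, 0.494, 0.638 and 0.970 in SCI rats, and 1.46, 4.68 and 2.88 in SCI + SCS rats. The SCI libraries lay below all others, and the log2FC of -3.09 (SE 0.43; edgeR, BH-adjusted p = 0.00260) was the largest of this group. Grm7 (mGluR7, an inhibitory autoreceptor in the active zone) stood at 13.98, 11.5 and 7.49 CPM in Sham rats, 1.71, 2.87 and 1.39 in SCI rats, and 3.38, 5.83 and 6.34 in SCI + SCS rats, without overlap. Its log2FC was -2.48 (SE 0.37; edgeR, BH-adjusted p = 0.00303). Grm7 shares its locus with an antisense gene without a symbol (979 against 4044 counts). The other Gi-coupled receptors Grm2, Grm3, Grm4 and Grm8 had log2FC between -2.07 (Grm4) and -1.70 (Grm2), each called. Grm6, the receptor of retinal ON bipolar cells, had 10 to 30 counts in Sham rats, 0 to 7 in SCI rats and 7 in each SCI + SCS library. It passed the filter on low counts only in SCI vs Sham and was not called there (log2FC -2.03, SE 0.95).

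The vesicular transporters, which define glutamatergic terminals, held the largest fall of the 35 and the least even one. Slc17a6 (VGLUT2, the carrier of most spinal excitatory interneurons, chromosome 1 from 101212489 to 101252542) stood at 159, 132 and 97.1 CPM in the Sham group, 35.1, 27.4 and 20.1 in the SCI group and 45.3, 54.3 and 67.0 in SCI + SCS rats. The 3 groups formed separate bands, and the fall after SCI was 2.25 (SE 0.27; edgeR, BH-adjusted p = 0.00191). Slc17a7 (VGLUT1, the carrier of large sensory and corticospinal terminals) had 19, 1709 and 460 counts in the Sham libraries, 0, 5 and 36 in the SCI libraries and 44, 284 and 215 in the SCI + SCS libraries. Sham replicate 1 lay within the SCI range, so the groups overlapped, and the log2FC of -5.44 (SE 1.74; edgeR, BH-adjusted p = 0.0393) lost its call without SCI replicate 1, SCI replicate 2, Sham replicate 2 or Sham replicate 3, with adjusted p up to 0.124. Summed CPM of 8 dorsal root ganglion markers were 414, 773 and 159 in the same Sham libraries, 129, 67.9 and 44.5 in the SCI libraries, and 121, 113 and 183 in the SCI + SCS libraries. They were highest where Slc17a7 was highest in the Sham group but not in the other groups, and their part in this result was not tested. Slc17a8 (VGLUT3) had 45 to 51 counts in the Sham group and 0 to 19 in the SCI group, with a log2FC of -2.60 (SE 0.99) that did not pass (edgeR, BH-adjusted p = 0.0664; 0.0220 without SCI replicate 1).

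Both uptake transporters among the 35 genes fell. Slc1a1 (EAAT3, the transporter on neuronal cell bodies and dendrites) stood at 12.5, 10.6 and 8.04 CPM in the Sham libraries, 2.05, 3.97 and 3.37 in the SCI libraries and 3.72, 5.84 and 5.51 in the SCI + SCS libraries. The log2FC was -1.75 (SE 0.30; edgeR, BH-adjusted p = 0.00472), and each Sham library lay above every injured one. Slc1a6 (EAAT4, best known from Purkinje cells) stood at 3.95, 2.92 and 2.68 CPM in Sham rats, 1.002, 0.979 and 0.854 in SCI rats, and 1.02, 1.56 and 1.001 in SCI + SCS rats, with a log2FC of -1.77 (SE 0.26; edgeR, BH-adjusted p = 0.00286). For this gene both injured groups lay together, well below the Sham group.

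Of the 7 postsynaptic scaffold and signaling genes 5 fell past the fold threshold. Camk2a (CaMKIIα) stood at 25.9, 20.4 and 7.67 CPM in Sham rats, 2.18, 2.98 and 2.21 in SCI rats, and 3.40, 10.2 and 9.51 in SCI + SCS rats. Its log2FC was -2.89 (SE 0.46; edgeR, BH-adjusted p = 0.00370). Shank1 (a scaffold that links PSD-95 partners to Homer) stood at 69.8, 47.8 and 25.5 CPM in Sham rats, 7.78, 7.85 and 3.97 in SCI rats, and 11.4, 22.8 and 23.7 in SCI + SCS rats, with a log2FC of -2.89 (SE 0.45; edgeR, BH-adjusted p = 0.00331). In both genes SCI + SCS replicate 1 lay near the SCI libraries and the other 2 lay higher. Dlg4 (PSD-95) and the Shank1 relatives Shank2 and Shank3 had log2FC of -1.65, -1.65 and -1.22 (SE 0.20, 0.37 and 0.29), and Shank3 was below the fold threshold without Sham replicate 1 (log2FC -0.93) and missed the adjusted p without SCI replicate 3 (edgeR, BH-adjusted p = 0.0531). Homer1, a scaffold that ties mGluR5 to intracellular calcium stores, had a log2FC of -0.69 (SE 0.17; edgeR, BH-adjusted p = 0.0178). Cnih2, an auxiliary protein that speeds AMPA receptors to the surface, stood at 44.6, 34.6 and 27.1 CPM in Sham rats, 22.2, 20.7 and 18.1 in SCI rats, and 29.4, 31.6 and 35.6 in SCI + SCS rats. Its log2FC was -0.82 (SE 0.20; edgeR, BH-adjusted p = 0.0153), below the fold threshold.

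**Figure D2:**
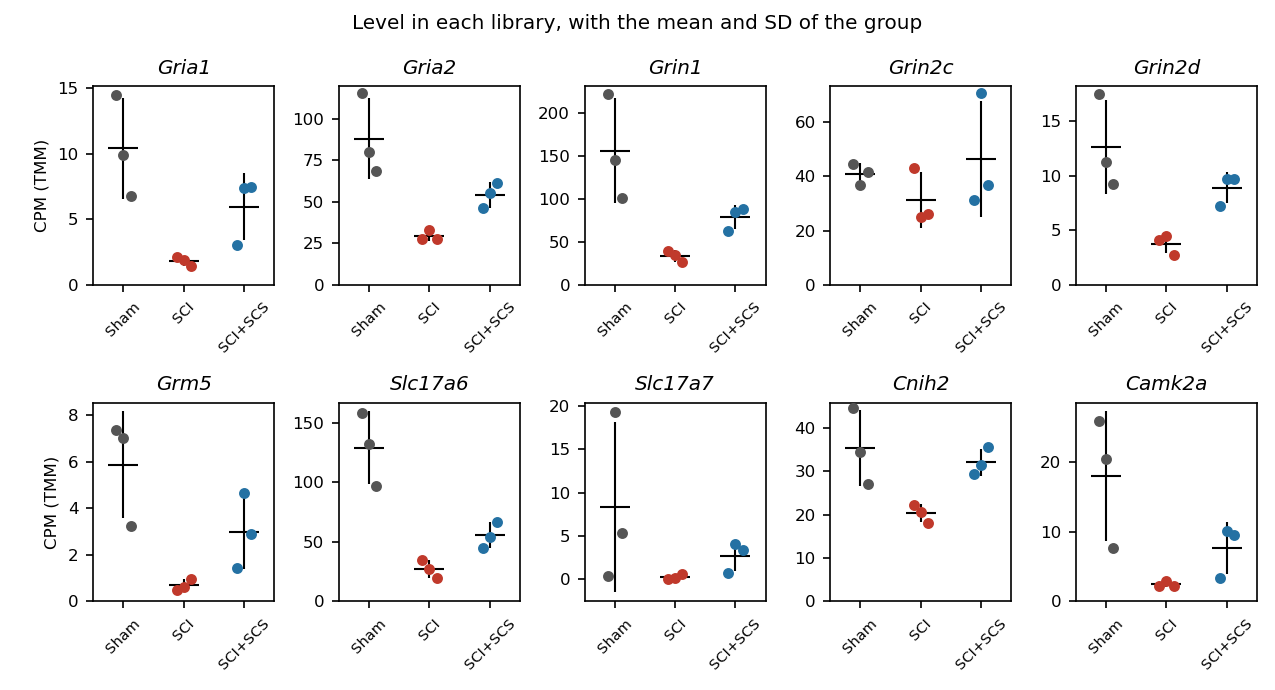
CPM (vertical axes, TMM-normalized, each panel on its own scale) of 10 genes in each library by group, with points for the libraries and a bar with its whisker for the mean and SD of 3. Gria2, Grin1 and Slc17a6 form separate bands, Grin2c overlaps between groups, and Slc17a7 is widely spread in the Sham group.

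SCI + SCS vs SCI asked what differed with an electrode and stimulation after the same contusion. Of the 35 genes 34 passed the filter on low counts, and edgeR called 0 higher and 0 lower, against 1 higher (0.00566%) and 0 lower (0%) of 17663 genes. At an unadjusted p under 0.05, 22 were higher and 0 lower (background, 13.3% and 10.9%), and 33 of 34 had a log2FC above 0 (background, 49.3%). In 22 genes every SCI + SCS library lay above every SCI library, against 15.6% of all genes. DESeq2, the tool of the study, was run anew here and called more genes in each direction than the study reported. It called 11 of the 35 higher and 0 lower, against 1.89% higher and 1.6% lower of 22094 genes. The 11 were Camk2a, Gria1, Grik1, Grin1, Grin2b, Grin2d, Grm5, Grm7, Shank1, Shank2 and Slc17a6. The calls thus differed between the tools, and DESeq2 gave Grik3, Grm6 and Slc17a8 no adjusted p.

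The median log2FC was 0.83, a 1.78-fold higher level in the SCI + SCS group, with a range from -0.02 (Grin3b) to 3.78 (Slc17a7), beside a median of -0.01 over all genes. The 6 genes with the smallest p in edgeR were Gria2, Grin1, Cnih2, Grin2d, Gria1 and Slc17a6. Grin1 had a log2FC of 1.23 (SE 0.19; edgeR, BH-adjusted p = 0.0719, and 1.06e-06 by DESeq2), and its lowest SCI + SCS library (62.5 CPM) lay above its highest SCI library (39.9 CPM). Gria2 and Cnih2 had the same edgeR adjusted p of 0.0719, with log2FC of 0.89 (SE 0.13) and 0.67 (SE 0.12), and stayed below the fold threshold by either tool. Grin2d had a log2FC of 1.24 (SE 0.23; edgeR, BH-adjusted p = 0.0769). For Gria1 the log2FC was 1.73 (SE 0.37; edgeR, BH-adjusted p = 0.0833) and for Slc17a6 it was 1.02 (SE 0.23; edgeR, BH-adjusted p = 0.0861).

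Further genes had log2FC above 1 that edgeR did not call. Grm5 had a log2FC of 2.11 (SE 0.48), Camk2a of 1.65 (SE 0.41), Shank1 of 1.57 (SE 0.36), Grm7 of 1.39 (SE 0.36), Shank2 of 1.18 (SE 0.31), Grin2b of 1.11 (SE 0.27) and Grik1 of 1.03 (SE 0.23). For Slc17a7 the difference of 3.78 had an SE of 1.23, with 0, 5 and 36 counts against 44, 284 and 215. SCI + SCS replicate 1 was the lowest of its group for 30 of the 35 genes. Without it edgeR called 3 of the 35 higher, Camk2a, Gria1 and Grin1 (edgeR, BH-adjusted p = 0.0499 for each). Over all 17976 genes tested in that setting 79 were higher and 44 lower DEGs, against 1 and 0 with all libraries. With any other library left out, edgeR called 0 of the 35. At the other end stood Homer1 (log2FC 0.16, SE 0.19), Grik5 (0.17, SE 0.10), Grik2 (0.30, SE 0.11) and Slc1a6 (0.35, SE 0.29). The log2FC of Gria3, Gria4, Grin2a, Grin2c, Grin3a, Grik4, Grm2, Grm3, Grm4, Grm8, Slc1a1, Dlg4 and Shank3 lay between 0.54 (Grin2a) and 0.99 (Grm2), while Grik3 and Slc17a8 had 1.55 and 1.92 with SE of 0.95 and 0.96.

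**Figure D3:**
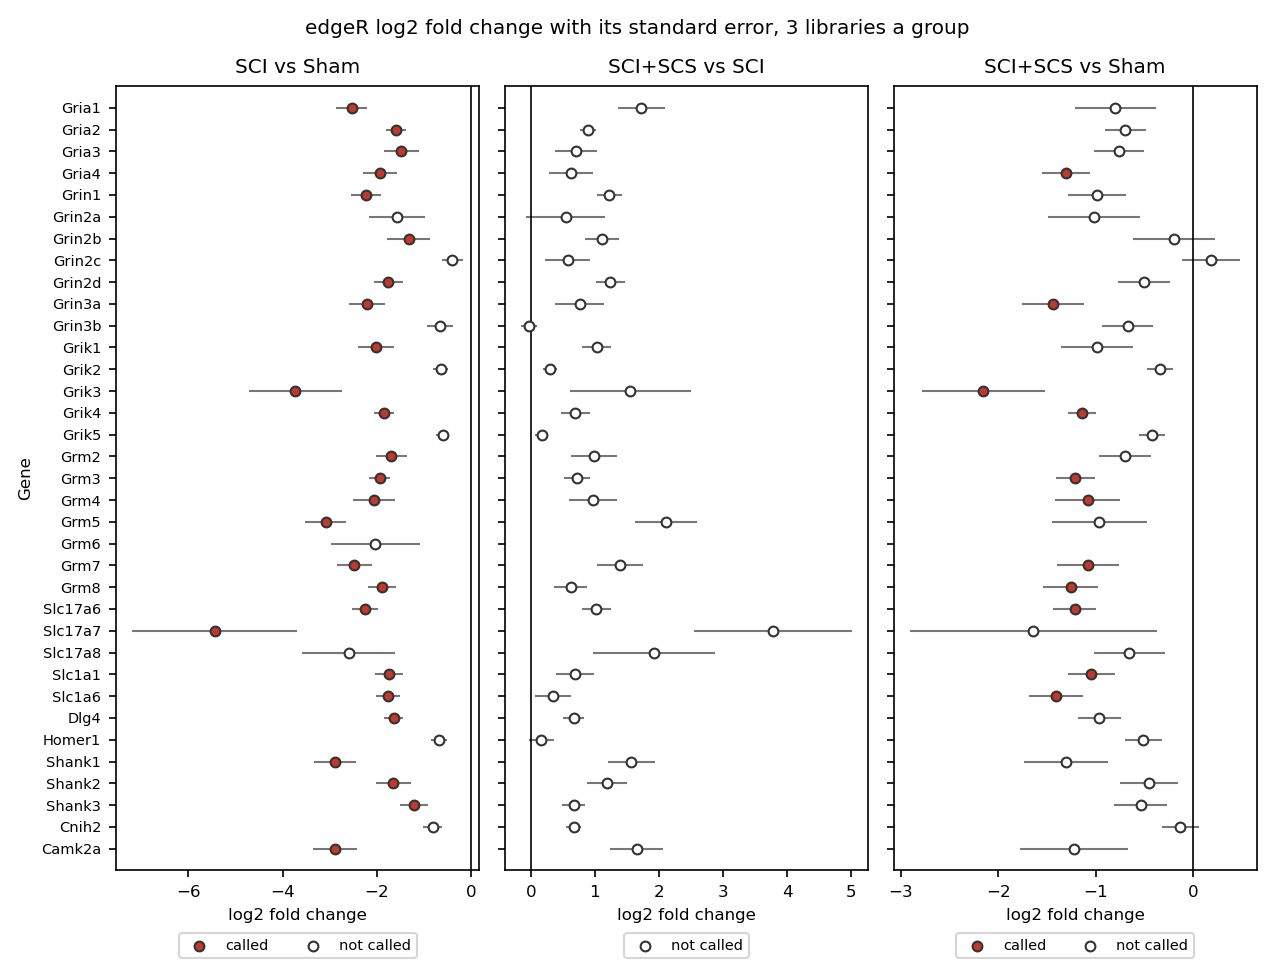
edgeR log2 fold change of each gene (points) with its standard error (lines) in each comparison, 3 libraries a group, with filled points for DEGs. In SCI vs Sham 26 points are filled and each lies left of 0, in SCI+SCS vs SCI none is filled and 33 of 34 lie right of 0, and in SCI+SCS vs Sham 11 are filled.

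The SCI + SCS group was also set against the Sham group, to show which genes still differed from uninjured tissue. This comparison shares its Sham libraries with the first and its SCI + SCS libraries with the second, so its values are given for each gene beside theirs and not as separate evidence. Of 34 genes tested 11 were lower DEGs by edgeR and 0 were higher (0 also by DESeq2 and at an unadjusted p under 0.05; background, 5.44% and 6.28% of 17640 genes). Without the fold threshold 14 were lower (background, 16.2%), and in 23 every SCI + SCS library lay below every Sham library (background, 26.2%). The median log2FC was -0.98, beside 0.01 over all genes.

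The 11 DEGs were Gria4, Grin3a, Grik3, Grik4, Grm3, Grm4, Grm7, Grm8, Slc17a6, Slc1a1 and Slc1a6. Among these, the 5 largest in size were Grik3 (-2.15, SE 0.63), Grin3a (-1.44, SE 0.32), Slc1a6 (-1.41, SE 0.28), Gria4 (-1.30, SE 0.24) and Grm8 (-1.26, SE 0.28). Among these 11 genes only Grik4, Grm3 and Slc17a6 stayed called when each of the 6 libraries was left out in turn, with log2FC of -1.14 (SE 0.14), -1.21 (SE 0.20) and -1.22 (SE 0.22) over all libraries. The others lost their call without at least 1 library, and the count was 4 to 16 over the 6 omissions: 4 without SCI + SCS replicate 1, 5 without SCI + SCS replicate 2, 7 without SCI + SCS replicate 3, 7 without Sham replicate 1, 5 without Sham replicate 2 and 16 without Sham replicate 3. The lower DEGs over all genes also varied, from 372 of 17917 without SCI + SCS replicate 1 to 1309 of 17974 without Sham replicate 3.

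Several genes that were DEGs in SCI vs Sham had SCI + SCS libraries that overlapped the Sham libraries. Gria1 had a log2FC of -0.80 (SE 0.42), Grin2b of -0.20 (SE 0.42), Grin2d of -0.50 (SE 0.26), Grm5 of -0.96 (SE 0.49), Shank2 of -0.45 (SE 0.30) and Shank3 of -0.54 (SE 0.27), with edgeR BH-adjusted p between 0.167 and 0.733. Camk2a (-1.22, SE 0.55), Grik1 (-0.99, SE 0.37) and Slc17a7 (-1.64, SE 1.26) overlapped as well, with edgeR BH-adjusted p of 0.132, 0.0811 and 0.342. A p of this size does not show that the groups were alike. Cnih2 (-0.14, SE 0.19) and Grin2c (0.18, SE 0.30) lay nearest to 0, and with 1 library left out the sign turned for Cnih2 (-0.30 to 0.07), Grin2c (-0.27 to 0.40) and Grin2b (-0.55 to 0.08). Grin1 (-0.99, SE 0.29), Dlg4 (-0.96, SE 0.22) and Gria2 (-0.70, SE 0.21) passed the adjusted p without the fold threshold (edgeR, BH-adjusted p = 0.0438, 0.0204 and 0.0473). The remaining genes, Gria3, Grin2a, Grin3b, Grik2, Grik5, Grm2, Slc17a8, Homer1 and Shank1, were not called by edgeR, with log2FC between -1.30 (Shank1) and -0.34 (Grik2). DESeq2 called 14 genes lower, the 11 of edgeR and also Camk2a, Grik1 and Shank1 (DESeq2, BH-adjusted p = 0.0433, 0.0220 and 0.00481). Over all genes it called 1170 of 22219 lower.

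Levels of different genes were compared as the deposited FPKM, a measure scaled to gene length and library total. For some genes the FPKM did not follow the deposited counts at 1 fixed length. Shank2, for example, stood at 14.4 and 10.6 CPM in SCI + SCS replicates 2 and 3, but at 1.32 and 1.14 FPKM. The ranks and shares below thus also rest on how the FPKM were made. In the Sham group Dlg4 was highest, with 37.5 ± 8.71 FPKM (SD, n = 3), followed by Grin1 (29.3 ± 10.99), Slc17a6 (26.1 ± 6.04), Cnih2 (21.0 ± 5.13) and Gria4 (18.9 ± 4.52), and each overlapped the next of these 5. Every Gria4 library lay above every library of Grik5 (12.7 ± 1.65). In the SCI group Cnih2 (11.6 ± 1.13) and Dlg4 (11.4 ± 2.38) came first and overlapped, and Grik5 (8.47 ± 0.79) came next, above every library of Grin1 (6.29 ± 0.95). In the SCI + SCS group the order was Cnih2 (19.3 ± 1.83), Dlg4 (18.7 ± 3.96), Grin1 (15.1 ± 2.71) and Slc17a6 (11.5 ± 2.28), again with overlap between neighbours. Grm6 was the lowest in each group, with means of 0.0376, 0.00857 and 0.0178 FPKM.

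The make-up of 4 gene families was described as the share of each gene in the summed FPKM of its family, which sets aside a change common to the whole family. An exact two-sided permutation test of 3 against 3 cannot give a p under 0.1, and over the 48 tests made (16 genes, 3 comparisons) the smallest BH-adjusted p of the permutation tests was 0.253, so no share passed. Among AMPA subunits Gria1 held 7.02, 7.29 and 5.31% in the Sham libraries, 3.41, 4.12 and 4.45% in the SCI libraries and 4.80, 9.57 and 7.56% in the SCI + SCS libraries. The SCI shares lay below both other groups. Gria4 had the highest mean share of the AMPA subunits in each group, although Gria2 was above it in SCI replicate 3 (38.8 against 34.0%), with 45.3 ± 1.96% (SD, n = 3) in Sham rats, 38.4 ± 6.87% in SCI rats, and 35.0 ± 2.40% in SCI + SCS rats. Gria2 and Gria3 held 25.8 ± 1.52% and 22.4 ± 0.92% in Sham rats, 31.1 ± 9.29% and 26.5 ± 3.41% in SCI rats, and 31.6 ± 2.49% and 26.1 ± 0.44% in SCI + SCS rats.

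Among the GluN2 subunits Grin2c held most of the FPKM, 71.0, 75.1 and 81.9% in the Sham libraries, 91.1, 83.6 and 89.2% in the SCI libraries and 79.9, 87.6 and 78.5% in the SCI + SCS libraries. Every SCI share of Grin2c lay above every Sham share. Grin2d held 20.5 ± 4.33% in Sham rats, 9.84 ± 3.08% in SCI rats, and 15.2 ± 4.07% in SCI + SCS rats, and Grin2a and Grin2b were each scarce, with means of 0.627 to 2.27% in any group. Among kainate subunits Grik5 held 40.6 ± 1.39% in Sham rats, 55.8 ± 3.02% in SCI rats, and 48.6 ± 0.98% in SCI + SCS rats, in 3 bands that did not overlap. Grik4 held 35.1 ± 3.98, 19.8 ± 3.68 and 25.1 ± 1.72% in the same order, without overlap, although SCI replicate 1 and SCI + SCS replicate 1 both stood at 23.1%. Grik2 held 14.6 ± 1.66, 19.7 ± 1.43 and 18.8 ± 1.65%, Grik1 held 8.88 ± 4.25, 4.47 ± 0.59 and 7.17 ± 1.13%, and Grik3 held at most 1.13% in any library. Among the vesicular transporters Slc17a6 held 91.7 ± 8.20, 98.5 ± 1.83 and 93.7 ± 3.79%, and Slc17a7 held 0.25, 16.7 and 6.91% in the Sham libraries, 0, 0.35 and 3.41% in the SCI libraries and 1.80, 9.16 and 6.40% in the SCI + SCS libraries.

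**Figure D4:**
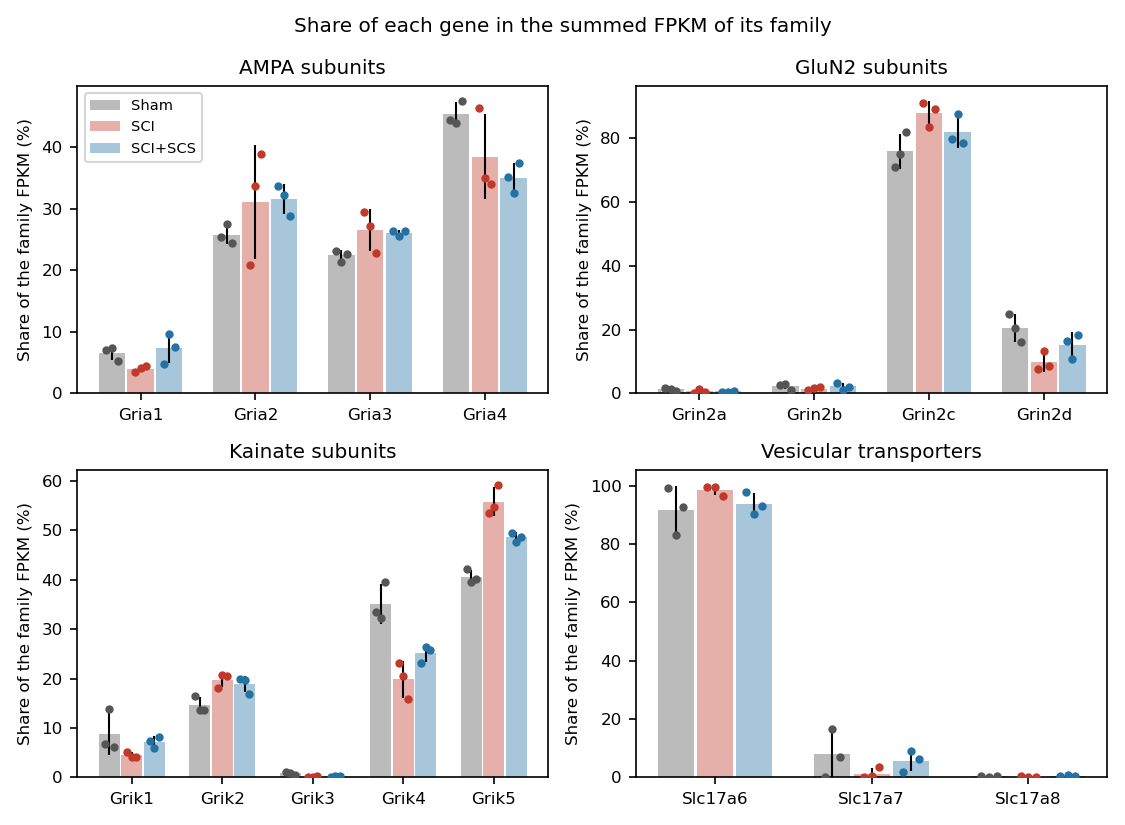
Share of each gene in the summed FPKM of its family (percent, vertical axes) by group, with bars for the mean, whiskers for the SD of 3 libraries and points for the libraries. Grik5 forms separate bands by group, while Gria2 and Slc17a7 spread widely within a group.

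In the Sham and SCI + SCS groups the same rats were high or low for most of the 35 genes. Sham replicate 1 was the highest Sham library for 32 genes and Sham replicate 3 the lowest for 30. SCI + SCS replicate 1 was the lowest of its group for 30 genes, and its median level (-1.32 on the log2 scale, against the Sham mean) lay nearer to the SCI libraries than did -0.82 and -0.69 for SCI + SCS replicates 2 and 3. In the SCI group the order varied more between genes, with replicates 1, 2 and 3 the lowest for 12, 4 and 19 genes and the highest for 14, 15 and 6. The summed CPM of the pan-neuronal genes had the same order in the Sham group (12276, 8085 and 5602) and was also lowest in SCI + SCS replicate 1 (2994, against 3335 and 4702), while in the SCI group it was 3170, 1872 and 1194. The part of neuronal content in the spread was not tested.

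The 14 pan-neuronal genes gave a yardstick for the size of the changes. Each of the 14 fell after SCI, with a median log2FC of -1.98. The log2FC of the 35 genes minus that median had a median of 0.13, and 19 of the 35 lay within 0.5 of it, 14 below it and 21 above it in all. Slc17a7 lay farthest below (-3.46) and Grin2c farthest above (1.57). In SCI + SCS vs SCI the pan-neuronal median was 0.90, with 0 of 14 called by edgeR and 4 called higher by DESeq2, and the 35 genes lay at a median of -0.08 from it, 22 of 34 within 0.5. In SCI + SCS vs Sham the pan-neuronal median was -1.19 with 8 of 14 called lower, and the 35 genes lay at 0.21 from it.

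Other genes of the same synapses were described from lists, again beside 13.6% lower DEGs over all genes in SCI vs Sham. Of 20 genes for auxiliary subunits of AMPA and kainate receptors 13 were lower DEGs and 0 higher (median log2FC -1.58), led by Cacng2 (stargazin, which carries AMPA receptors to synapses; -3.73, SE 1.12), Cacng5 (a relative of stargazin; -3.32, SE 0.69), Frrs1l (an AMPA receptor assembly protein; -3.08, SE 0.29) and Shisa9 (-2.75, SE 0.34). Cacng2 had 0 counts in SCI replicate 3. Of 33 further postsynaptic genes 20 were lower DEGs and 0 higher (median -1.24), led by the adhesion protein gene Nlgn1 (-3.61, SE 0.32), Lrrc7 (densin; -2.66, SE 0.40), Nptx1 (a pentraxin that clusters AMPA receptors; -2.50, SE 0.31) and Dlgap3 (a PSD-95 partner; -2.36, SE 0.30). In this list Baiap2, Homer3 and Dlgap4 were higher after SCI without reaching the fold threshold, with log2FC of 0.80 (SE 0.16), 0.65 (SE 0.16) and 0.40 (SE 0.10) and edgeR BH-adjusted p of 0.00793, 0.0168 and 0.0146; these 3 were named after their values were seen.

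Of 19 release genes 18 were lower DEGs (median log2FC -2.16), led by Rims1 (-4.10, SE 0.46) and Bsn (-3.65, SE 0.62) of the active zone, the calcium sensor gene Syt1 (-3.51, SE 0.60) and the vesicle protein gene Sv2c (-3.26, SE 0.87). Of 24 inhibitory synapse genes 21 were lower DEGs (median -2.40), among them the GABA receptor gene Gabrb2 (-5.12, SE 1.01), the glycine receptor gene Glra3 (-4.84, SE 1.14) and Gad2 (GABA synthesis; -3.50, SE 0.58), and Gabrb2 and Glra3 each had 0 counts in 2 of 3 SCI libraries. The excitatory genes were thus not alone in falling, and the difference between these lists was not tested. Of 13 genes of glutamate uptake and metabolism, several of them expressed by glia, 3 were lower DEGs (median -0.57): the neuronal glutaminase gene Gls2 (-1.94, SE 0.28), Got1 (-1.88, SE 0.28) and Slc1a2 (GLT-1, the main astrocyte transporter; -1.61, SE 0.21). In SCI + SCS vs SCI edgeR called 0 genes of each of these lists. The list medians there were 0.82 for auxiliary subunits, 0.64 for postsynaptic genes, 0.93 for release genes, 1.25 for inhibitory synapse genes and 0.27 for uptake and metabolism, and DESeq2 called 4, 7, 7, 13 and 0 of them higher and 0 of each lower.

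**Figure D5:**
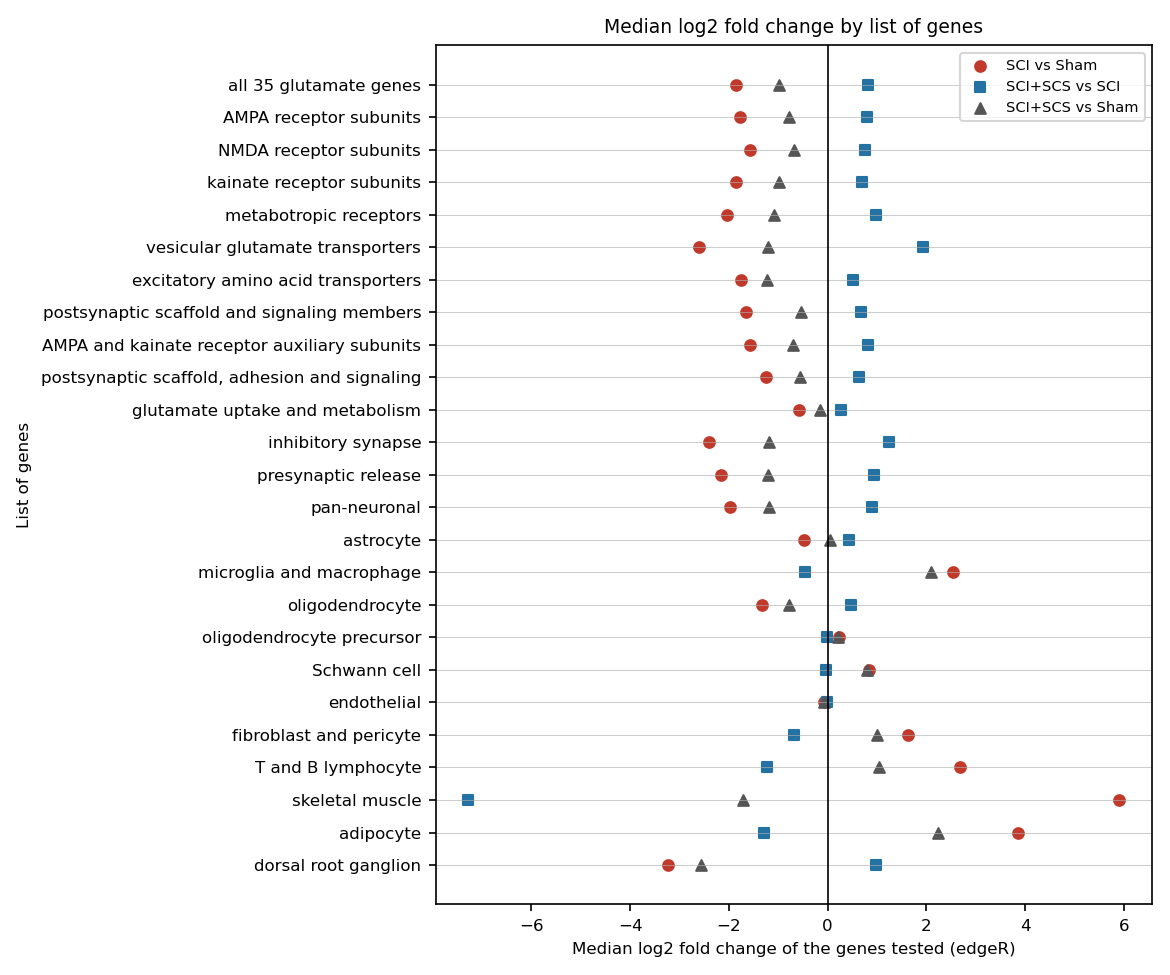
Median edgeR log2 fold change (horizontal axis) of the genes tested in each list (rows) for the 3 comparisons (symbols). The glutamate role groups, the release genes, the inhibitory synapse genes and the pan-neuronal genes lie left of 0 in SCI vs Sham and right of 0 in SCI+SCS vs SCI, and the microglia and lymphocyte lists lie on the opposite sides.

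Markers of other cell types moved between the same groups, and their part in the results was not tested. In SCI vs Sham 6 of 7 microglia and macrophage markers rose, with a summed CPM of 217 to 564 in Sham rats, 2127 to 2635 in SCI rats and 1591 to 1690 in SCI + SCS rats. Of 7 fibroblast and pericyte markers 6 rose (402 to 1874, 3310 to 4960 and 2045 to 3468 CPM in the same order), and of 6 oligodendrocyte markers 5 fell (57991 to 82230, 17160 to 32617 and 30230 to 35864 CPM). Of 8 astrocyte markers 0 were called by edgeR or DESeq2, with 0 rising and 2 falling at the adjusted p alone, with 8907 to 13298, 9146 to 13981 and 13679 to 17451 CPM. Of the oligodendrocyte precursor markers 1 of 4 rose and 1 fell (318 to 475, 449 to 489 and 410 to 456 CPM), of Schwann cell markers 1 of 5 rose (4399 to 6946, 8632 to 12721 and 6673 to 14537 CPM), and of endothelial markers 1 of 6 rose and 1 fell (290 to 314, 366 to 387 and 328 to 377 CPM). Lymphocyte markers summed to 0.55 to 1.45, 5.41 to 8.60 and 1.52 to 3.61 CPM, with 4 of 5 tested called higher. Adipocyte markers summed to 2.82 to 8.93, 86.9 to 115 and 26.6 to 42.8 CPM, with 2 of 3 tested called higher, and Lep was at 0 counts in every group and Adipoq in the SCI + SCS group. Muscle markers summed to 21.1 to 64.1, 10.9 to 3424 and 13.6 to 15.0 CPM, with 4 of 7 called higher, and of 8 dorsal root ganglion markers 6 fell (159 to 773, 44.5 to 129 and 113 to 183 CPM). Between the SCI + SCS and SCI groups edgeR called 0 markers of any list, while DESeq2 called 7 muscle, 2 lymphocyte and 2 adipocyte markers lower and 4 pan-neuronal, 2 dorsal root ganglion and 1 oligodendrocyte precursor markers higher.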

How the data were processed

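The 9 libraries, from 3 rats in each of 3 groups, were grouped by the labels. The authors enriched mRNA with oligo(dT), sequenced both ends, trimmed reads with fastp 0.23.2 and, per the submitters' notes, used HISAT2 2.2.1 and build mRatBN7.2; the counting program, annotation and strand setting are not given in the sources used here. The authors deposited raw counts per gene, and FPKM, which divide counts by gene length and library total. The 35 genes, the lists and the tests were chosen with earlier results of these data known.

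The whole count table was tested with edgeR 4.0.16 in R 4.3.3 (quasi-likelihood test, TMM scaling, default filter on low counts, the 6 libraries of a comparison, no covariates) with Benjamini-Hochberg adjustment, and DESeq2 1.42.0 was the alternative. The square root of F divides |log2FC| to give the SE. CPM values use TMM factors from all 9 libraries. FPKM plus 1 or 0.1 was tested on the log2 scale with limma 3.58.1 with a minimum mean FPKM of 0.1, which understates the change of low genes. FPKM shares used an exact permutation test. The scripts were tested on simulated data. Depth was 62844376 to 88358570 counts per library. Without molecular identifiers, PCR copies are not separate molecules. The values of every library were given for the 2 most changed DEGs of each role group, for the 6 genes with the smallest p in SCI + SCS vs SCI, and for members of 4 families as shares; Grin2c was added after its values were seen. Of each related list up to 4 DEGs with the largest |log2FC| were named, except that some items are not reported here. The list symbols Prrt2, Lrrtm1, Nlgn2, Cplx1, Itgam, Myh1, Myh4 and Mylpf were not analysed here. Other alternatives were no filter, at least 10 counts in every library, DESeq2 size factors or upper quartile scaling, 1 fit of 9 libraries, the replicate block, rows of an identifier summed, muscle and adipocyte genes removed, and each library left out.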

Additional observations from a re-analysis of the deposited data

How the results depend on the processing

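Of the 35 genes, 26 were called lower in SCI vs Sham, and the count was 24 to 30 under 11 other settings of test, filter, scaling, pseudocount and samples, 23 to 25 with 1 library left out, but 15 for log2(FPKM + 1) with limma, with or without the filter on low values, where 11 genes lost their call. In SCI + SCS vs SCI, 0 were called higher by edgeR, 11 by DESeq2, and 0 to 3 with 1 library left out. The 3 came without SCI + SCS replicate 1, where 79 of all 17976 genes tested were higher DEGs. The 11 lower calls of SCI + SCS vs Sham became 2 for log2(FPKM + 1) with and without the filter and 4 to 16 with 1 library left out (4 without SCI + SCS replicate 1, 16 without Sham replicate 3). Over all genes these 2 omissions gave 372 of 17917 and 1309 of 17974 lower DEGs. The pseudocount of 1 understates the change of low genes, and the cause of the other shifts was not tested.

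The replicate numbers were entered as a block (replicate block) as an alternative. This gave 24 lower calls in SCI vs Sham, 0 higher in SCI + SCS vs SCI and 1 lower in SCI + SCS vs Sham. Deviations of same-numbered libraries correlated at 0.146, -0.0927 and 0.115, at -0.0763, -0.0386 and -0.107, and at -0.220, 0.00647 and -0.207 in these comparisons, and the rats were different, so the numbers were not taken as a pairing.

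With 1 library left out, the sign of some small differences turned. The log2FC in SCI + SCS vs Sham ranged from -0.30 to 0.0667 for Cnih2, from -0.55 to 0.0774 for Grin2b and from -0.27 to 0.40 for Grin2c, and that of Grin3b in SCI + SCS vs SCI from -0.08 to 0.02. Differences of FPKM shares, in percentage points, ranged as follows in SCI + SCS vs Sham: Gria1 from -0.36 to 2.02, Grin2b from -0.667 to 0.385, Grik1 from -3.09 to 0.738, Slc17a6 from -2.34 to 5.82 and Slc17a7 from -6.02 to 2.203. They ranged in SCI + SCS vs SCI from -4.67 to 4.34 for Gria2, from -2.23 to 1.11 for Gria3, from -5.66 to 0.532 for Gria4, from -0.31 to 0.269 for Grin2a and from -1.73 to 0.0462 for Grik2. For Slc17a8 in SCI vs Sham the range was -0.267 to 0.0168. Low counts limit the values of Grm6, Grik3 and Slc17a8.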
